A study of Mus musculus with 13 samples.

Results

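Cytochromes P450 of families 1 to 3 were followed in mouse liver after bile duct ligation (BDL) and inhibition of miR-873-5p. Members were all genes whose symbol is Cyp1, Cyp2 or Cyp3 followed by a letter and a number, with a mean of at least 10 raw counts over the mice of a deposited count table. The rule kept 45 of 58 such symbols, among 23785 genes listed. By subfamily, Cyp2c had 13 members, Cyp2d 9, Cyp3a 7, Cyp2a 4, Cyp2j 3 and Cyp1a 2, and Cyp1b, Cyp2e, Cyp2f, Cyp2g, Cyp2r, Cyp2s and Cyp2u had 1 member each.

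These P450s are haem enzymes of the endoplasmic reticulum. They take electrons from NADPH through P450 reductase (encoded by Por), in some reactions with help from cytochrome b5, and insert 1 oxygen atom into drugs, toxins, steroids, fatty acids or bile acids. Hepatocytes hold most of them, and many are zoned along the lobule, with Cyp2e1 and Cyp1a2 around the central vein and Cyp2f2 around the portal tract. Some of their genes are known targets of the xenobiotic receptors AHR, CAR and PXR, and several mouse members differ between males and females.

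Total liver RNA was sequenced from 3-month-old C57 mice, which the study describes as males and wild type for Gnmt. The no BDL group (n = 5) carries the label of non-treated mice without ligation. The miR-Ctrl BDL group (n = 4) had the bile duct tied and received a control oligonucleotide, and the anti-miR-873-5p BDL group (n = 4) had the same surgery and received a hairpin inhibitor of miR-873-5p. Both oligonucleotides were given through the tail vein in a lipid carrier 3 and 5 days after ligation (days 3 and 5), and the livers were collected at day 7. Ligation and injection came together in both BDL groups, so against the no BDL mice their contributions cannot be told apart. Both comparisons with no BDL use the same 5 mice.

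Sequencing gave between 12185333 and 19689037 counts per mouse, and the 45 members took 1.01 to 2.09% of them without BDL, 0.600 to 0.990% in miR-Ctrl BDL and 0.849 to 1.27% in anti-miR-873-5p BDL. Mouse 3 of miR-Ctrl BDL and mouse 2 of anti-miR-873-5p BDL stood apart from their groups in many members, and the authors left both out of the table that compares the 2 BDL groups. Hepatocyte markers were present in every mouse, at a summed level of 141300 to 155300 normalised counts (CPM, counts scaled by edgeR to a common library size) without BDL, 90280 to 126300 in miR-Ctrl BDL and 81330 to 133600 in anti-miR-873-5p BDL. Among 10 hepatocyte markers tested, 4 were lower and 1 was higher with miR-Ctrl (median log2 difference -0.57), and 2 were lower with anti-miR-873-5p (median -0.36). Cholangiocyte markers were at 11.8 to 18.4, 58.8 to 95.7 and 46.8 to 129.6 CPM in the same order, and 9 of 9 tested passed the test as higher in each BDL group. Of 8 macrophage markers, 5 were higher in miR-Ctrl BDL and 1 in anti-miR-873-5p BDL, and of 8 stellate and myofibroblast markers 5 were higher in each. Neutrophil markers were higher for 4 of 5 and for 3 of 4 tested, and 1 of 7 endothelial markers was lower in each. Over all genes tested, 16.6% were lower and 19.1% higher with miR-Ctrl, and 8.44% lower and 13.1% higher with anti-miR-873-5p. The 1 endothelial call of 7, and the 1 macrophage call of 8 with anti-miR-873-5p, are near these shares and allow no reading about those cells. The summed levels cover only markers in the joint scaling of the 13 mice, 8 of 10 hepatocyte and 9 of 10 cholangiocyte markers. No marker in that scaling was at 0 in all 13 mice. In whole liver, fewer hepatocytes and less RNA per hepatocyte cannot be told apart, and the part of these other cells in the results was not tested.

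Most P450 members were lower after BDL. With miR-Ctrl, 28 of 44 members tested were lower and 2 were higher than without BDL (edgeR quasi-likelihood test, Benjamini-Hochberg adjusted p under 0.05), where 16.6% of all 13072 genes tested were lower and 19.1% were higher. The members' median log2 difference was -1.34, beside -0.011 for all genes. With anti-miR-873-5p, 22 of 44 members were lower and 1 was higher, where 8.44% of 13130 genes were lower and 13.1% were higher, and the members' median was -1.15 beside -0.0070. The 3 higher calls were Cyp2s1 in both comparisons and Cyp1b1 with miR-Ctrl.

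The count with anti-miR-873-5p moved when single mice were left out, as did the count over all genes. It was 27 lower and 2 higher without mouse 2, 28 lower and 2 higher without mouse 1, and 14 lower without mouse 3. Of all genes, 1817 of 13597, 1386 of 13419 and 357 of 13335 were lower in these fits, against 1108 of 13130 with all mice. The members' median was -1.22, -1.35 and -1.15 in the same order. With miR-Ctrl, 32 members were lower without mouse 3, where 2711 of 13509 genes were. With scaling by library size alone, the calls were 16 lower and 7 higher with miR-Ctrl and 8 lower and 3 higher with anti-miR-873-5p. Of all genes, 275 were then lower and 9360 higher with miR-Ctrl, and 131 lower and 10063 higher with anti-miR-873-5p. That scaling moved the median of all genes to 0.79 and 0.82, and the members' medians stayed 1.33 and 1.21 below those.

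**Figure D1:**
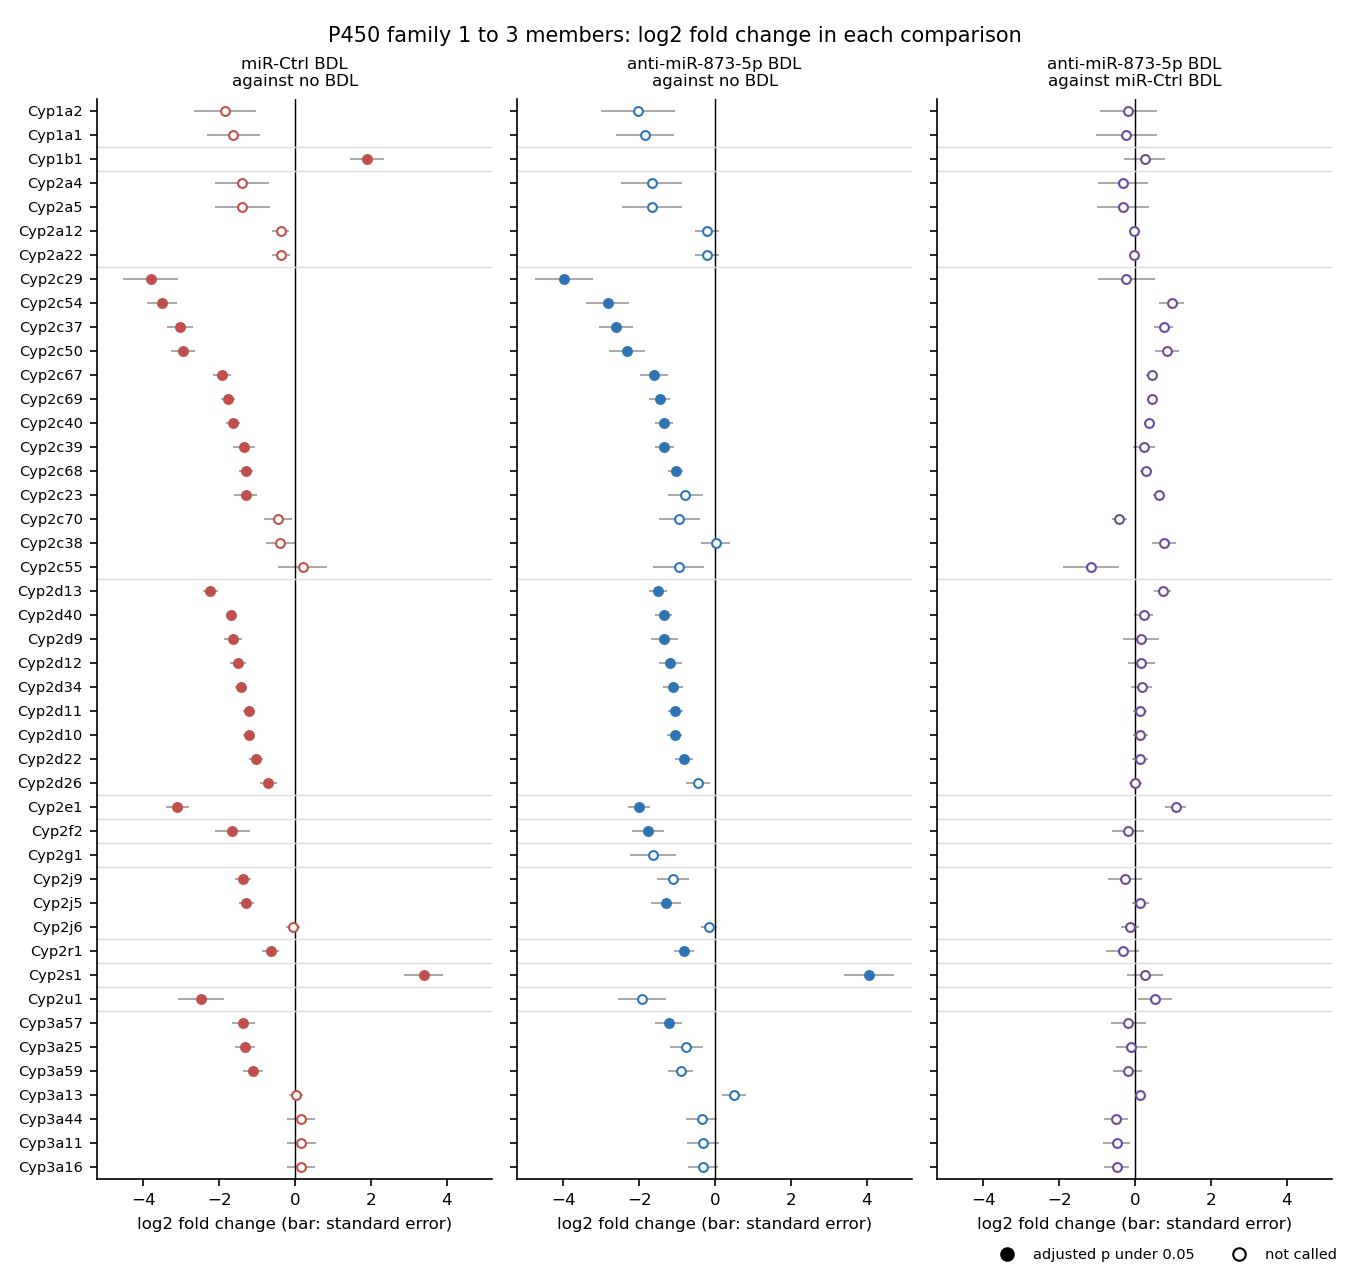
Log2 difference with its standard error (horizontal axis) for the 44 members tested in each of 3 comparisons (vertical axis, 45 members by subfamily); filled points passed the adjusted p of 0.05 and open points did not. Points lie mostly left of 0 in both comparisons with no BDL (medians -1.34 and -1.15), and none is filled between the 2 BDL groups.

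Cyp2e1, which oxidises ethanol, acetone and paracetamol, had the highest level per kilobase of exon of 43 members in every group. Without BDL, mice 1 to 5 had 6277, 6494, 8015, 7008 and 3626 CPM. With miR-Ctrl the 4 mice had 501, 924, 718 and 726 CPM, and with anti-miR-873-5p they had 1865, 1605, 1291 and 1363 CPM. The 3 groups did not overlap, and every anti-miR-873-5p mouse lay above every miR-Ctrl mouse and below every mouse without BDL. Cyp2e1 fell by 3.11 on the log2 scale with miR-Ctrl (SE 0.30, edgeR adjusted p = 0.00013) and fell by 2.01 with anti-miR-873-5p (SE 0.29, edgeR adjusted p = 0.00231). Both calls held in 17 of 17 alternative settings.

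Cyp2c37, Cyp2c50 and Cyp2c54, neighbouring pericentral genes of chromosome 19 whose enzymes oxidise fatty acids such as arachidonic acid, fell alongside. Cyp2c50 was at 616, 1068, 828, 597 and 409.8 CPM without BDL. It was at 81.4, 123, 73.7 and 76.9 CPM with miR-Ctrl, and at 226, 43.9, 179 and 102 CPM with anti-miR-873-5p. Each BDL mouse lay below each mouse without BDL. The log2 differences of Cyp2c50 were -2.96 (SE 0.31, edgeR adjusted p = 0.000211) and -2.32 (SE 0.47, edgeR adjusted p = 0.00947). Those of Cyp2c37 were -3.04 and -2.61 (edgeR adjusted p = 0.000284 and 0.00444), and those of Cyp2c54 were -3.52 and -2.84 (edgeR adjusted p = 0.000275 and 0.00859). The 6 calls of these 3 genes held in 17 of 17 alternatives each.

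Cyp2c29, a pericentral arachidonic acid epoxygenase and known CAR target, had the largest decrease of all members in both comparisons. Its mice without BDL were at 1297, 1186, 1198, 1017 and 1005 CPM. With miR-Ctrl they were at 107, 61.6, 5.50 and 146 CPM, and with anti-miR-873-5p at 193, 14.0, 57.2 and 18.1 CPM. The BDL groups overlapped each other and lay far below the mice without BDL, and they spread widely. The log2 differences were -3.80 (SE 0.72, edgeR adjusted p = 0.00335) and -3.98 (SE 0.76, edgeR adjusted p = 0.00735), and leaving out 1 mouse gave between -5.23 (without anti-miR-873-5p mouse 1) and -3.65 in the latter. By mean level per kilobase, Cyp2c29 ranked 6 of 43 members without BDL, 26 with miR-Ctrl and 30 with anti-miR-873-5p.

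Upstream sequence is shown for 3 of these genes and, as a contrast, for Cyp3a11, which passed no test here. The 250 bases before the start of Cyp2e1 lie at chr7:140763569-140763818 on the + strand, those of Cyp2c37 at chr19:39992174-39992423 (+), those of Cyp2c50 at chr19:40089429-40089678 (+) and those of Cyp3a11 at chr5:145879855-145880104 on the - strand (RefSeq, GRCm38.p6). Capitals mark CAAAGT (letters of the HNF4A site), AGGTCA (the core site of nuclear receptors) and TATAAA (the TATA box), on either strand, and no marked matches overlap.
Cyp2e1: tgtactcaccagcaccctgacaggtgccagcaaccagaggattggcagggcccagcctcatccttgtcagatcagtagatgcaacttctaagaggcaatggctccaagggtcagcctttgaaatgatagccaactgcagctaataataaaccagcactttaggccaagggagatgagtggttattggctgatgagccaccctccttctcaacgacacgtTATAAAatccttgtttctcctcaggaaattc
Cyp2c37: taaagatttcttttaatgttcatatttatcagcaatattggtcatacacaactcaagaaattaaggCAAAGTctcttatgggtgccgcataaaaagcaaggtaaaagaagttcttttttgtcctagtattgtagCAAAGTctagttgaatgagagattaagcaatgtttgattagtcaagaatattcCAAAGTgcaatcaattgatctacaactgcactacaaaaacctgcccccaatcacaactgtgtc
Cyp2c50: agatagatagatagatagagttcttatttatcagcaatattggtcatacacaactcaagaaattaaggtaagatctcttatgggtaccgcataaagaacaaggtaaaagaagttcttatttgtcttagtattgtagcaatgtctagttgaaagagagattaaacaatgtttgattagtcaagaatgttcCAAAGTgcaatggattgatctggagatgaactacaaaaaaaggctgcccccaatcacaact
Cyp3a11: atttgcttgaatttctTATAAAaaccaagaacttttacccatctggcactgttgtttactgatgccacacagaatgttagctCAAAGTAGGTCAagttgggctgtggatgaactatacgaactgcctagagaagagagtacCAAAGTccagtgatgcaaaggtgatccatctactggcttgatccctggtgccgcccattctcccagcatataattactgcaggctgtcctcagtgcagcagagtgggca
CAAAGT stood in the window of 20 of the 37 members with a promoter in the table (54.1%), against 12.6% of all 32851 promoters. TATAAA stood in 21 of 37 (56.8%, against 12.4%), AGGTCA in 10 of 37 (27.0%, against 14.0%) and GTTAAT, part of the HNF1 site, in 6 of 37 (16.2%, against 6.4%). The members were counted by gene and the background by promoter, and a gene can have several promoters. The percentages set against each other are therefore not in the same unit, and they were not tested. Related genes share ancestry and letters, so the members are not independent in these counts. The window of Cyp2c37 held CAAAGT at 3 positions and that of Cyp2c50 at 1, and the window of Cyp2e1 held only TATAAA among the 4 motifs.

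Of the other Cyp2c members, 5 fell in both BDL groups, which gives 10 of 13 lower with miR-Ctrl and 9 of 13 with anti-miR-873-5p. Cyp2c40, more abundant in females, had 213, 325, 226, 195 and 199.8 CPM without BDL, then 81.7, 72.1, 60.0 and 78.4 CPM with miR-Ctrl, and 102, 55.6, 111 and 88.3 CPM with anti-miR-873-5p. Its log2 differences were -1.64 (SE 0.18, edgeR adjusted p = 0.000283) and -1.35 (SE 0.24, edgeR adjusted p = 0.00545). Cyp2c69, also more abundant in females, followed with -1.78 and -1.46 (edgeR adjusted p = 0.000221 and 0.00736), and Cyp2c39, an epoxygenase at 9.12 to 19.0 CPM without BDL, with -1.35 and -1.34 (edgeR adjusted p = 0.00517 and 0.00705). Cyp2c67 and Cyp2c68 had log2 differences of -1.93 and -1.62, and of -1.31 and -1.04. Cyp2c40, Cyp2c67, Cyp2c68 and Cyp2c69 share 43.3 to 60.3% of their 50-base exon windows with another gene, so reads may have been divided among them.

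Cyp2c23, an epoxygenase with no shared window, was called in 1 BDL group only. Its levels were 244, 416, 412, 305 and 221 CPM without BDL, 148, 164, 63.7 and 134 CPM with miR-Ctrl, and 250.3, 37.9, 231 and 205 CPM with anti-miR-873-5p. No miR-Ctrl mouse reached a mouse without BDL, whereas 2 of 4 anti-miR-873-5p mice did. The log2 differences were -1.30 (SE 0.30, edgeR adjusted p = 0.00880) and -0.79 (SE 0.46, edgeR adjusted p = 0.254). Cyp2c38 (-0.39 and 0.017), Cyp2c55 (0.20 and -0.97) and Cyp2c70 (-0.44 and -0.94) passed neither test.

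**Figure D2:**
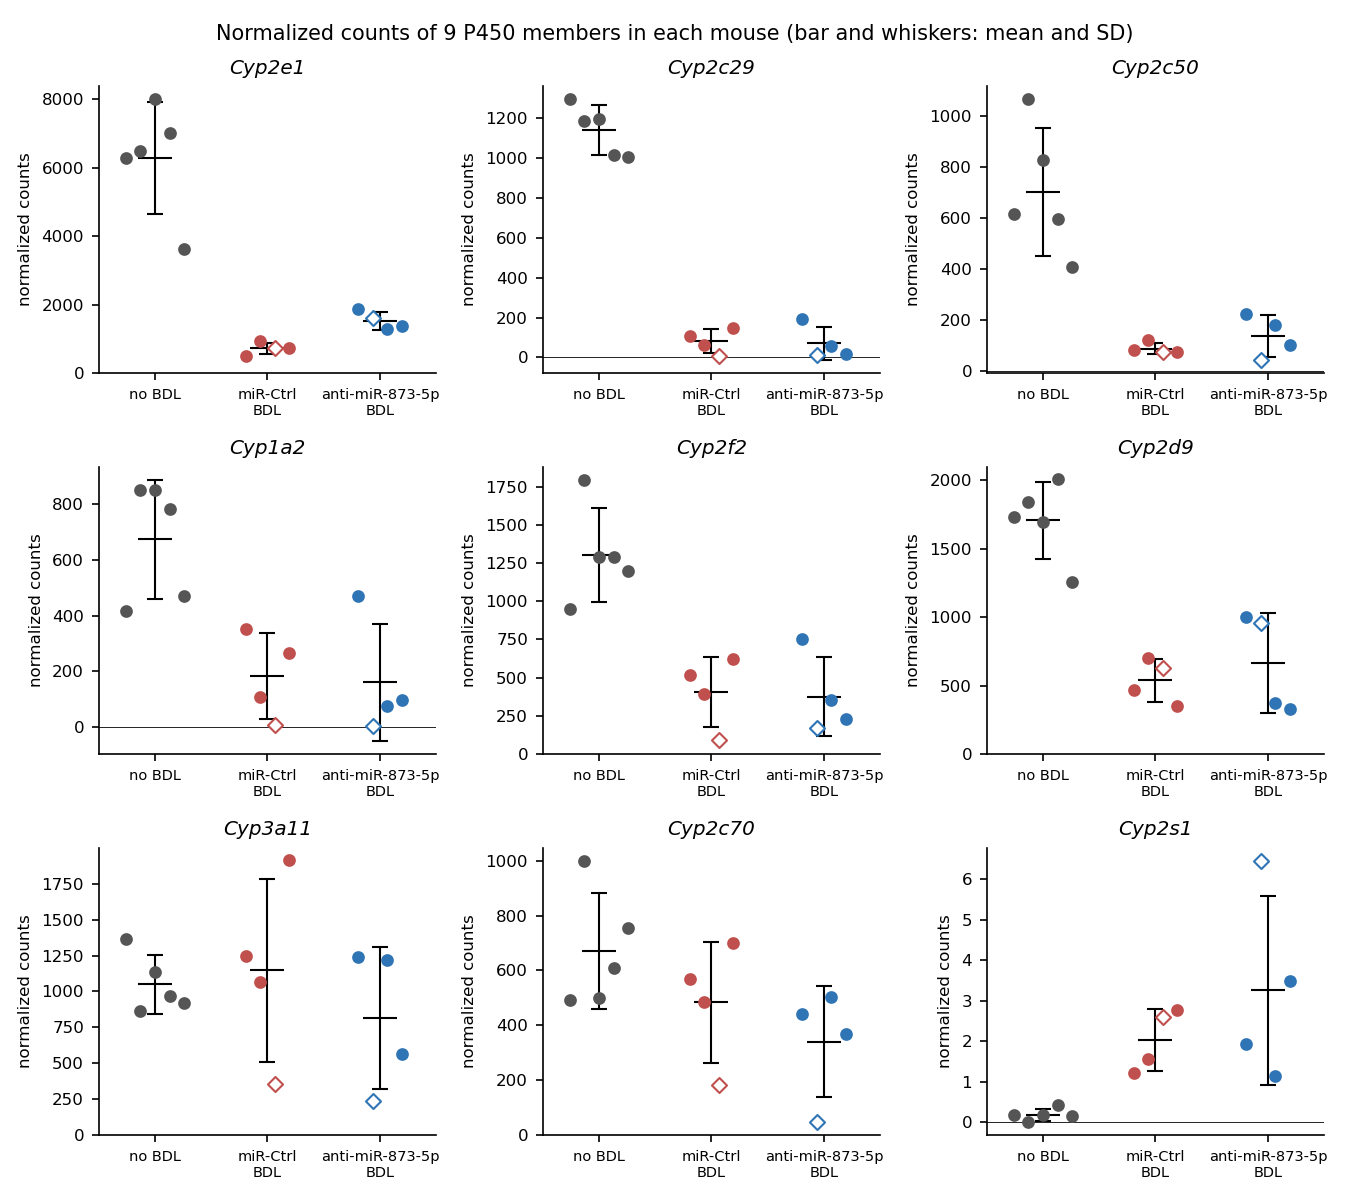
Normalised CPM in each mouse (vertical axes, 1 panel per gene) for 9 members without BDL and with miR-Ctrl or anti-miR-873-5p after BDL, with bars and whiskers for the group mean and SD; open diamonds are the 2 mice that stood apart from their BDL groups. Cyp2e1 separates all 3 groups (lowest 3626 without BDL, highest 924 with miR-Ctrl), whereas Cyp3a11 and Cyp2c70 overlap in all 3.

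The Cyp2d genes lie side by side on chromosome 15 and encode steroid and drug oxidases. All 9 were lower with miR-Ctrl, with log2 differences from -2.24 (Cyp2d13) to -0.71 (Cyp2d26), and 8 of 9 with anti-miR-873-5p, where Cyp2d26 had -0.46 (edgeR adjusted p = 0.325). Cyp2d9, a male-predominant testosterone hydroxylase, was at 1731, 1843, 1696, 2011 and 1257 CPM without BDL, at 469, 703, 626 and 354 CPM with miR-Ctrl and at 1000, 960.1, 372 and 329 CPM with anti-miR-873-5p. Neither BDL group reached the lowest mouse without BDL, and anti-miR-873-5p mice 1 and 2 lay above all miR-Ctrl mice. Cyp2d9 fell by 1.64 (SE 0.24, edgeR adjusted p = 0.000845) and fell by 1.34 (SE 0.36, edgeR adjusted p = 0.0283), and the second call was kept in 10 of 17 alternatives and was lost without any 1 of 6 mice. Cyp2d10 and Cyp2d11 had nearly the same differences (-1.22 and -1.23 with miR-Ctrl) and share 35.8 and 37.2% of their windows, most with each other.

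Cyp1a2, the pericentral AHR target that metabolises caffeine and aromatic amines, spread over a wider range in each BDL group than the genes above. Its levels were 416, 851, 849.8, 782 and 472 CPM without BDL, 352, 107, 6.08 and 268 CPM with miR-Ctrl and 471, 2.35, 74.1 and 96.1 CPM with anti-miR-873-5p. The lowest values belonged to the 2 mice that stood apart, and anti-miR-873-5p mouse 1 lay within the range without BDL. The log2 differences of -1.85 (SE 0.81, edgeR adjusted p = 0.102) and -2.03 (SE 0.99, edgeR adjusted p = 0.168) did not pass. Without miR-Ctrl mouse 3 the first became -1.46 (edgeR adjusted p = 0.0165), and without anti-miR-873-5p mouse 1 the second became -3.52 (edgeR adjusted p = 0.0268). Cyp1a1, its inducible neighbour on chromosome 9, had -1.63 and -1.85 and passed in the same 2 settings (-1.25 and -3.35).

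Of the 4 Cyp2a members, none passed in either comparison. Cyp2a5, a pericentral coumarin and nicotine hydroxylase, was already uneven without BDL, at 402, 346, 1335, 699.7 and 153 CPM. It was at 326, 254, 29.7 and 266 CPM with miR-Ctrl and at 493, 46.1, 121 and 64.2 CPM with anti-miR-873-5p, and the groups overlapped. Its log2 differences were -1.39 (SE 0.72, edgeR adjusted p = 0.159) and -1.66 (SE 0.80, edgeR adjusted p = 0.164), and the second was -2.90 without anti-miR-873-5p mouse 1 (edgeR adjusted p = 0.0185). Cyp2a4, the female-predominant testosterone hydroxylase, gave -1.39 and -1.68, and -2.89 in that setting. Cyp2a12, a bile acid 7α-hydroxylase of the mouse, had -0.38 and -0.22. It became lower without miR-Ctrl mouse 3 (-0.64, edgeR adjusted p = 0.0212) and without anti-miR-873-5p mouse 2 (-0.67, edgeR adjusted p = 0.0364), the mice with the highest Cyp2a12 of their groups (606 and 825 CPM).

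The 3 P450s listed as acting on bile acids, Cyp2a12, Cyp2c70 and Cyp3a11, passed no test, with median log2 differences of -0.38 with miR-Ctrl and -0.33 with anti-miR-873-5p. Cyp2c70, which makes the muricholic acids of mice, was at 494, 999, 500, 609 and 753 CPM without BDL, 570, 484, 182 and 699 CPM with miR-Ctrl and 442, 49.1, 503 and 369 CPM with anti-miR-873-5p. The groups overlapped, with the lowest value of each BDL group in a mouse that stood apart. Cyp3a11, the major PXR target and a bile acid and drug hydroxylase, was at 1368, 864, 1137, 968 and 917 CPM without BDL. It was at 1245, 1068, 357 and 1916 CPM with miR-Ctrl and at 1239, 239.7, 1220 and 567 CPM with anti-miR-873-5p. Its log2 differences were 0.16 (SE 0.38, edgeR adjusted p = 0.782) and -0.33 (SE 0.42, edgeR adjusted p = 0.616), and the sign turned to -0.21 without miR-Ctrl mouse 4 in the first. Library-size scaling gave 0.98 (edgeR adjusted p = 0.0496) and 0.50, where the median of all genes was 0.79 and 0.82.

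The Cyp3a subfamily was split. Cyp3a25, Cyp3a57 and Cyp3a59 were lower with miR-Ctrl (-1.33, -1.37 and -1.10, edgeR adjusted p = 0.00389, 0.00710 and 0.00933), and only Cyp3a57 was called with anti-miR-873-5p (-1.23, edgeR adjusted p = 0.0370), where Cyp3a25 and Cyp3a59 had -0.76 and -0.91. Cyp3a13, which shares no window with another gene, had 0.018 and 0.50 and passed neither test. The female-predominant Cyp3a16 and Cyp3a44 had 0.16 and 0.15 with miR-Ctrl and -0.32 and -0.36 with anti-miR-873-5p, close to the values of Cyp3a11.

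The values of several near-identical genes were tied together in every mouse. Counts of Cyp2a4 were 39.1 to 43.0% of those of Cyp2a5 in all 13 mice, although the level of Cyp2a5 varied 45.0-fold. Counts of Cyp3a16 were 5.51 to 6.01% and those of Cyp3a44 5.52 to 6.20% of those of Cyp3a11, which varied 7.99-fold, and Cyp2a22 stood at 29.9 to 32.4% of Cyp2a12. The pair Cyp2c54 and Cyp2c50 was looser, at 24.2 to 53.9%. Whether reads of 1 gene were divided onto its copy was not tested. The libraries had 50-base reads, and the treatment of reads with several positions is not given in the sources used here. The values of Cyp2a4, Cyp3a16, Cyp3a44 and Cyp2a22 are therefore uncertain as those of separate genes.

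Coding sequence shows how far 50-base reads can separate these copies. Cyp2a4 and Cyp2a5 differ at 23 of 1482 coding bases (98.4% identical), and 38.2% of their aligned 50-base windows are the same. Cyp2c50 and Cyp2c54 differ at 70 of 1470 (95.2%, 18.6% of windows the same), and Cyp3a11 and Cyp3a16 at 109 of 1512 (92.8%, 7.0% of windows). For each pair the window with the most differences is given, 5′ to 3′ on the coding strand of GRCm38, with differing bases in capitals. It lies in exon 2 of Cyp2a4 (chr7:26307676-26307725, +) and Cyp2a5 (chr7:26835821-26835870, +), in exon 6 of Cyp2c50 (chr19:40096717-40096766, +) and Cyp2c54 (chr19:40047596-40047645, -), and in exon 9 of Cyp3a11 (chr5:145864945-145864994, -) and Cyp3a16 (chr5:145451818-145451867, -).
Cyp2a4: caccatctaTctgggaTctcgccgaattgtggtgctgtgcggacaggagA
Cyp2a5: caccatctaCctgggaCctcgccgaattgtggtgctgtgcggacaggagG
Cyp2c50: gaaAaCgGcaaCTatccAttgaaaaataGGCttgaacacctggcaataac
Cyp2c54: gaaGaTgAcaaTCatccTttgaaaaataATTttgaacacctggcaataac
Cyp3a11: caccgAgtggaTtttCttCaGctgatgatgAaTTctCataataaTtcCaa
Cyp3a16: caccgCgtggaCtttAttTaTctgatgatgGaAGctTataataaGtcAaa
Even the most divergent window of Cyp2a4 and Cyp2a5 holds only 3 differences, against 9 for the Cyp2c pair and 11 for the Cyp3a pair. At the start of the coding sequence Cyp2a4 (chr7:26307218-26307267, +) and Cyp2a5 (chr7:26835364-26835413, +) read the same over 50 bases.
Cyp2a4 and Cyp2a5: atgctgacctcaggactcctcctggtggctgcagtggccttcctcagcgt

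**Figure D3:**
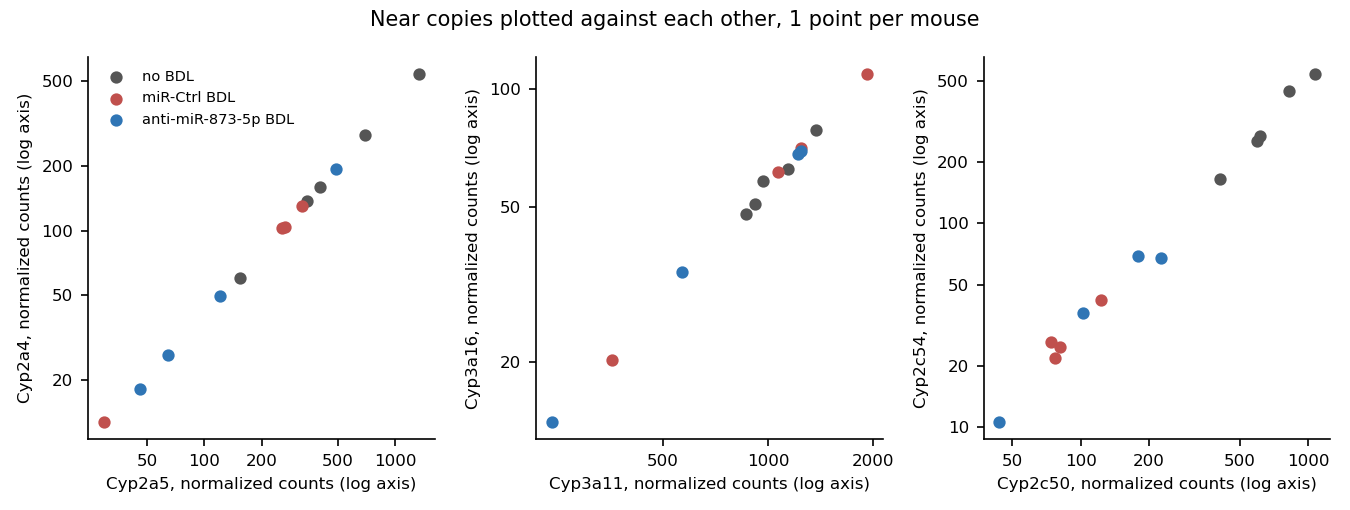
Levels of 3 pairs of near-identical genes in the 13 mice, 1 point per mouse on log axes in normalised CPM. Cyp2a4 against Cyp2a5 and Cyp3a16 against Cyp3a11 follow a line of constant ratio (39.1 to 43.0% and 5.51 to 6.01% of counts), and Cyp2c54 against Cyp2c50 scatters more (24.2 to 53.9%).

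Cyp2f2, the periportal naphthalene oxidase, was lower in both BDL groups although it lies at the other end of the lobule from Cyp2e1. Mice without BDL were at 948, 1793, 1289, 1291 and 1197 CPM, miR-Ctrl mice at 515, 396, 88.5 and 623 CPM and anti-miR-873-5p mice at 749.7, 169.5, 355 and 231 CPM. No BDL mouse of either treatment reached the lowest mouse without BDL. The log2 differences were -1.66 (SE 0.47, edgeR adjusted p = 0.0205) and -1.76 (SE 0.42, edgeR adjusted p = 0.0185), each called in 14 of 17 alternatives, and the calls were lost without miR-Ctrl mouse 2 and without anti-miR-873-5p mouse 3 or 4. Among the 8 pericentral members 5 were lower in each comparison, with medians of -3.00 and -2.18, and all 5 were Cyp2e1 or Cyp2c genes.

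The Cyp2j enzymes, epoxygenases of arachidonic acid encoded on chromosome 4, did not move together. Cyp2j5 was at 608, 697, 532, 522 and 416 CPM without BDL, at 242, 235, 155 and 259 CPM with miR-Ctrl and at 371, 70.1, 244 and 198 CPM with anti-miR-873-5p, with no overlap of either BDL group with no BDL. Its log2 differences were -1.29 (SE 0.20, edgeR adjusted p = 0.00126) and -1.30 (SE 0.40, edgeR adjusted p = 0.0428), and the second was called in 8 of 17 alternatives and lost without any 1 of 6 mice. Cyp2j9 had -1.37 (edgeR adjusted p = 0.000968) and -1.11 (edgeR adjusted p = 0.0875), the latter -1.64 without anti-miR-873-5p mouse 2 (edgeR adjusted p = 0.0106). Cyp2j6 had -0.059 and -0.16 and passed neither test, and its sign was not stable across settings. Of the 7 listed arachidonic acid epoxygenases, which include Cyp2c23 under its other symbol Cyp2c44, 5 were lower with miR-Ctrl and 3 with anti-miR-873-5p.

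Cyp2r1, the vitamin D 25-hydroxylase, was within 16.2 to 16.6 CPM in all 5 mice without BDL. It was at 11.8, 7.57, 6.67 and 15.2 CPM with miR-Ctrl and at 14.9, 8.95, 7.91 and 4.82 CPM with anti-miR-873-5p, so neither BDL group overlapped it. The log2 differences of -0.64 (SE 0.22, edgeR adjusted p = 0.0461) and -0.82 (SE 0.26, edgeR adjusted p = 0.0475) were called in 4 and 5 of 17 alternatives, and in 1 of 9 fits that left out a mouse in each comparison. Cyp2u1, a fatty acid hydroxylase at 9.78 to 59.8 CPM without BDL, had -2.49 (edgeR adjusted p = 0.0109) and -1.92 (edgeR adjusted p = 0.0529). Cyp2g1, an olfactory P450, was at 0.346 to 2.66 CPM without BDL and at 0 to 0.241 CPM with miR-Ctrl, too low to be tested there, and had -1.65 with anti-miR-873-5p (edgeR adjusted p = 0.0791).

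Cyp2s1 and Cyp1b1 went the other way, and both are P450s found mainly outside hepatocytes. Cyp2s1, an epithelial retinoid and eicosanoid oxidase, had 2, 0, 2, 5 and 2 raw counts without BDL, 20, 26, 31 and 46 with miR-Ctrl and 31, 85, 19 and 71 with anti-miR-873-5p. Each BDL mouse exceeded each mouse without BDL. Cyp2s1 rose by 3.39 (SE 0.51, edgeR adjusted p = 0.00104) and rose by 4.06 (SE 0.65, edgeR adjusted p = 0.00368) on the log2 scale, in 17 of 17 alternatives each. Summed over mice and scaled as in the edgeR fit, 123 counts against 11 gave a ratio of 10.7 (95% interval 5.79 to 22.1) with miR-Ctrl. With anti-miR-873-5p, 206 against 11 gave 16.9 (9.24 to 34.3). The intervals cover counting error only, and not the spread between mice or the choice of scaling. Over the alternatives, which include other scalings, the log2 differences were 3.11 to 4.15 and 3.52 to 4.845.

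Cyp1b1, an AHR target of mesenchymal cells that oxidises oestrogens, had 10, 4, 2, 7 and 9 raw counts without BDL and 18, 25, 42 and 36 with miR-Ctrl, without overlap. It rose by 1.90 (SE 0.45, edgeR adjusted p = 0.00920). With anti-miR-873-5p the counts were 9, 24, 39 and 55, and the gene was removed by the filter on low counts in that table. Its ratio to no BDL from summed counts, scaled in the same way, was 3.63 (95% interval 2.44 to 5.54) with miR-Ctrl. With anti-miR-873-5p the ratio was 3.58 (2.41 to 5.45). Here the groups overlapped, with anti-miR-873-5p mouse 1 at 0.56 CPM and no BDL mouse 1 at 0.86 CPM. Both intervals cover counting error only, and not the spread between mice, so they are no test of a difference between groups. Cholangiocyte and stellate cell markers were higher in the same mice, and their part in both genes was not tested.

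Seen side by side, 23 members were called in both comparisons with no BDL, 7 with miR-Ctrl only (Cyp1b1, Cyp2c23, Cyp2d26, Cyp2j9, Cyp2u1, Cyp3a25 and Cyp3a59), none with anti-miR-873-5p only, and 15 in neither. Without anti-miR-873-5p mouse 2, 5 of those 7 were called with anti-miR-873-5p as well (Cyp1b1, which was not tested there with all 4 mice, Cyp2d26, Cyp2j9, Cyp3a25 and Cyp3a59). A call in 1 comparison and not in the other is no test of a difference between treatments, which the comparison of the BDL groups addresses.

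Anti-miR-873-5p BDL was compared with miR-Ctrl BDL over 3 mice each (miR-Ctrl mice 1, 2 and 4, anti-miR-873-5p mice 1, 3 and 4). No member of 44 tested passed the edgeR test in either direction, and 0.0% of all 13746 genes tested passed it. An exact 2-sided permutation test of 3 against 3 cannot give a p below 0.1. At an unadjusted p under 0.05 there were 10 members and 863 genes. The members' median log2 difference was 0.13, beside 0.0057 for all genes, and it turned to -0.13 without anti-miR-873-5p mouse 1. The groups did not overlap for 6 of 44 members, all higher with anti-miR-873-5p (Cyp2c23, Cyp2c40, Cyp2c67, Cyp2c69, Cyp2d13 and Cyp2e1), where 6.59% of all genes were separated upward, and for 0 members downward, where 4.77% were. Over all 4 mice of each group, 2 of these 6 stayed separated, Cyp2e1 and Cyp2d13. In the 4 Cyp2c genes anti-miR-873-5p mouse 2 lay below every miR-Ctrl mouse (37.9 CPM for Cyp2c23, 55.6 for Cyp2c40, 44.9 for Cyp2c67 and 28.2 for Cyp2c69). The 6 had been picked by their separation in most of the same mice. The share of all genes separated over 4 mice a group was not counted, so the 2 have no background beside them. Cyp2c67 and Cyp2d13 are named here after their values were seen.

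Cyp2e1 had the largest positive value of the 44, with means of 717 ± 212 CPM and 1507 ± 313 CPM (SD, n = 3 each) and a log2 difference of 1.07 (SE 0.27, edgeR adjusted p = 0.757). Cyp2c23 had 148.5 ± 14.8 and 229 ± 22.8 CPM (SD, n = 3 each) and a log2 difference of 0.62 (SE 0.14, edgeR adjusted p = 0.757). The DESeq2 Wald test called these 2 members higher (Cyp2e1 adjusted p = 0.0440, Cyp2c23 adjusted p = 0.0455), among 17 genes higher and 9 lower in all. With all 4 mice of each group, edgeR called no member. Cyp2c37, Cyp2c50 and Cyp2c54 had 0.75, 0.84 and 0.96, with groups that overlapped, and Cyp2c29 (-0.23), Cyp1a2 (-0.18) and Cyp2f2 (-0.20) changed sign when single mice were left out. Cyp3a11 had -0.48 (SE 0.36, edgeR adjusted p = 0.836).

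The make-up of the P450 pool changed with its size. Summed over 43 members, the level per kilobase of exon was 6684 to 11350 CPM per kilobase without BDL, 2483 to 3500 with miR-Ctrl and 2646 to 4689 with anti-miR-873-5p. Cyp2e1 made up 25.1 to 32.7% of the pool without BDL, 7.60 to 13.8% with miR-Ctrl and 18.4 to 23.9% with anti-miR-873-5p, 3 ranges that did not overlap. The Cyp3a share was 5.58 to 7.01% without BDL and higher in every BDL mouse, at 9.39 to 19.9% with miR-Ctrl and 9.31 to 14.3% with anti-miR-873-5p, while Cyp3a11 itself passed no test. Cyp2c shares overlapped, at 17.8 to 26.2%, 14.0 to 22.0% and 6.13 to 25.1%. The Cyp2d share, which leaves out Cyp2d11 and Cyp2d13, was 20.2 to 24.6% without BDL and 23.5 to 47.5% with miR-Ctrl, 2 ranges that overlapped. With anti-miR-873-5p it was 24.7 to 46.5%. That range cleared the one without BDL by a margin too small to read (24.66% in mouse 3 against 24.62% in no BDL mouse 1). The highest values of both BDL groups were in the 2 mice that stood apart. Without BDL the order by level per kilobase after Cyp2e1 (2912 ± 756, SD, n = 5) was Cyp2f2 (644 ± 152), Cyp2d9 (643 ± 106), Cyp2d10 (625 ± 87.6) and Cyp2d26 (545 ± 85.1), and the means of these 4 neighbours differ by less than their SDs. Cyp3a11 stood at rank 13 without BDL, 5 with miR-Ctrl and 7 with anti-miR-873-5p. The exon length joins all annotated exons of a gene, 5093 bases for Cyp3a11 and 1730 for Cyp3a16, although both have 1512 coding bases. Ranks and shares therefore depend on the annotation, while the length of each gene was the same for every mouse.

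**Figure D4:**
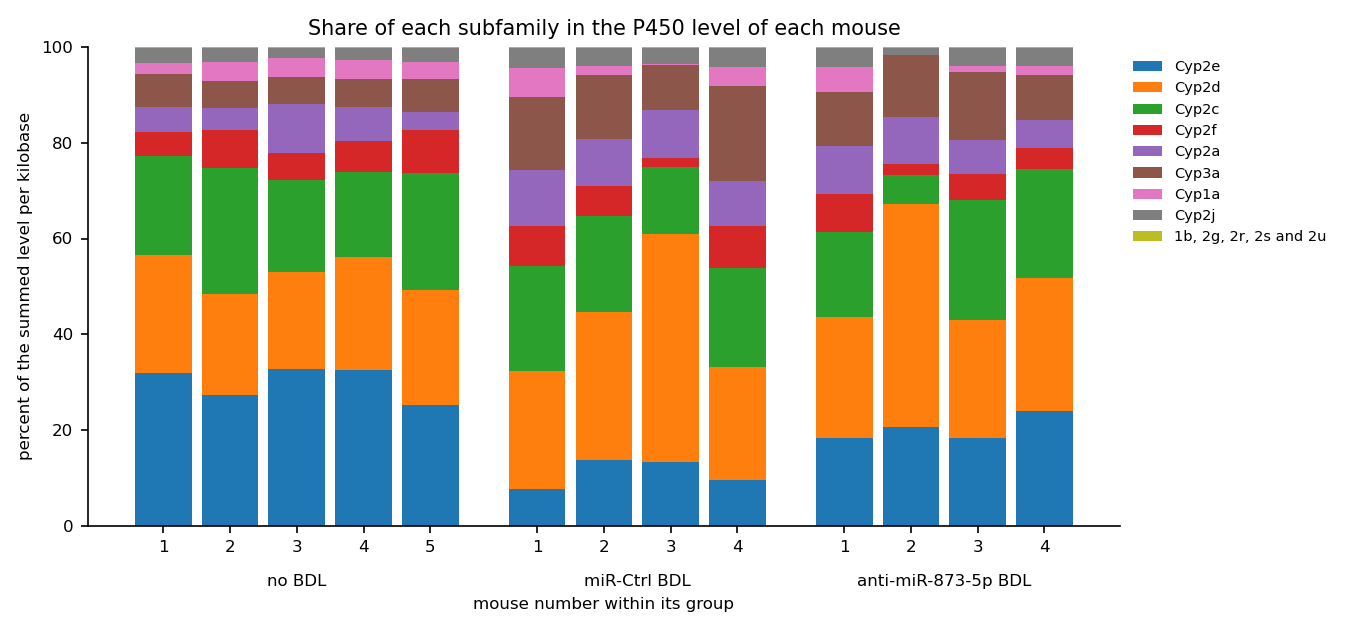
Share of each subfamily in the summed P450 level per kilobase of exon, in percent (vertical axis), 1 stacked bar per mouse. The Cyp2e segment is 25.1 to 32.7% without BDL, 7.60 to 13.8% with miR-Ctrl and 18.4 to 23.9% with anti-miR-873-5p.

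Genes that supply P450s with electrons and haem moved unevenly. Of 14 partners tested, 8 were lower and 1 was higher with miR-Ctrl (median -0.54), and 4 were lower and 1 was higher with anti-miR-873-5p (median -0.49). Over all genes tested, 16.6% were lower and 19.1% higher with miR-Ctrl, and 8.44% lower and 13.1% higher with anti-miR-873-5p. The 1 higher partner of 14 is below the share of all genes in both comparisons. That partner was Hmox1, the haem-degrading oxygenase, with log2 differences of 2.46 (SE 0.42, edgeR adjusted p = 0.00192) and 1.95 (SE 0.41, edgeR adjusted p = 0.0107). Fech, the ferrochelatase that completes haem, fell by 0.56 and 0.49 (edgeR adjusted p = 0.00377 and 0.0428), and Cyb5a, cytochrome b5, by 0.59 with miR-Ctrl (edgeR adjusted p = 0.0181) with -0.49 in the other group (edgeR adjusted p = 0.155). Por itself had 0.39 and 0.80 and did not pass, with 888 and 1335 CPM in the 2 mice that stood apart against 151 to 558 CPM without BDL. Alas1, the first enzyme of haem synthesis (-1.15 and -0.98), and Pgrmc1, a haem-binding P450 partner (-0.37 and -0.46), did not pass either.

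Among regulators of P450 genes, 10 of 20 tested were lower and 1 higher with miR-Ctrl (median -0.53), and 5 were lower with anti-miR-873-5p (median -0.24). Of all genes, 16.6% were lower and 19.1% higher with miR-Ctrl, and 8.44% were lower with anti-miR-873-5p. The 1 higher regulator of 20 is below the share of all genes. Nr1i3, encoding CAR, was at 122, 153, 216, 169 and 64.6 CPM without BDL, at 51.6, 60.4, 78.2 and 60.7 CPM with miR-Ctrl and at 64.3, 259, 84.7 and 96.8 CPM with anti-miR-873-5p. It fell by 1.18 with miR-Ctrl (SE 0.30, edgeR adjusted p = 0.0119) and had -0.18 with anti-miR-873-5p (edgeR adjusted p = 0.794). Nr1h4, the bile acid receptor FXR, and Rxra, the shared partner of these receptors, fell with miR-Ctrl by 0.97 and 0.59 (edgeR adjusted p = 0.00196 and 0.00433) and had -0.46 and -0.25 with anti-miR-873-5p. Nr1i2, encoding PXR (0.043 and 0.067), and Hnf4a (-0.24 and -0.12) passed neither test. Ahr rose by 0.68 with miR-Ctrl (edgeR adjusted p = 0.0486) and had 0.58 with anti-miR-873-5p. Between the BDL groups no partner or regulator passed.

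The members were also counted by sex bias and by inducer. Of 5 female-predominant members tested, 2 were lower in each comparison (Cyp2c40 and Cyp2c69), and the 1 male-predominant member, Cyp2d9, was lower in both. All 5 female-predominant members share exon windows with other genes, so their values are uncertain as those of separate genes. Of the xenobiotic receptor targets, 1 was higher (Cyp1b1) and 1 lower (Cyp2c29) of 5 tested with miR-Ctrl, and 1 was lower of 4 with anti-miR-873-5p (Cyp2c29). Over all genes tested, 16.6% were lower and 19.1% higher with miR-Ctrl, and 8.44% lower and 13.1% higher with anti-miR-873-5p. The 1 call in each direction among 5 targets is about the share of all genes with miR-Ctrl, and lists of this size allow no reading as a group. Cyp2b10, the standard CAR target, was under the minimum of the rule with at most 32 counts in a mouse, as did the female-predominant Cyp2b9 (at most 41) and Cyp2b13 (at most 9). The other 10 symbols under the rule were Cyp2b19, Cyp2b23, Cyp2c65, Cyp2c66, Cyp2j8, Cyp2j11, Cyp2j12, Cyp2j13, Cyp2t4 and Cyp2w1, none with more than 12 counts in any mouse.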

How the data were processed

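Liver RNA libraries (TruSeq RNA v2, single 50-base reads per the study's methods) of 13 mice were used. The authors deposited raw counts per Entrez gene in 3 tables, 1 per comparison, after trimming and alignment to mm10 (the submitters' processing notes name CASAVA 1.8.2, FastQC, Trim Galore, TopHat and DESeq2); the counting program is not given in the sources used here. In both larger tables, 23666 of 23725 IDs matched a symbol, and all 24 count columns were used. IDs with no symbol held 0.224 to 4.26% of counts. Counts were the same across tables for 44 of 45 members; those of Cyp2d11 differed, so it has no level here, and Cyp2d13, with no transcript in the annotation, has no level per kilobase.

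Each table was tested whole with edgeR 4.0.16 (R 4.3.3; filterByExpr, TMM, glmQLFit, glmQLFTest, group as the only term) and Benjamini-Hochberg adjustment over all genes tested, with calls at an adjusted p under 0.05. The test code was tested on simulated data. The standard error is the absolute log2 difference over the square root of F. Levels per mouse are edgeR CPM after 1 TMM scaling of all 13 mice over the 22246 genes with the same counts in every table. Levels per kilobase divide them by the joined length of all annotated exons of a gene. Depth was 12185333 to 19689037 counts per mouse, so genes with few counts are given as counts with an exact 95% interval for counting error.

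Members described by mouse were those of the zonation, sex, inducer, bile acid and epoxygenase lists, Cyp2r1, and the 5 largest calls in each direction per comparison. The members and lists were chosen with earlier results of these data known. Alternatives were other scalings, DESeq2 1.42.0, other filters, another threshold, 1 fit of all groups, a replicate block, and leaving out each mouse. Against no BDL, mice with the same number did not deviate together (correlations -0.089 to 0.036 with miR-Ctrl, -0.198 to 0.074 with anti-miR-873-5p). Between the BDL groups the correlations were 0.349 for number 1 and -0.016 for number 4. Numbers were not taken to pair the mice.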

Additional observations from a re-analysis of the deposited data

Results flagged for a closer look

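In groups of 4 or 5 mice, 7 of 79 group values had 1 mouse far from the others by Dixon's 95% criterion, which chance alone meets in about 1 in 20 groups. Cyp1a1 stood at 21.1 CPM and Cyp2a5 at 493 CPM in anti-miR-873-5p mouse 1, both above the other 3 mice. Cyp2a12 was highest in the 2 mice that stood apart, at 606 CPM in miR-Ctrl mouse 3 and 825 CPM in anti-miR-873-5p mouse 2. Without BDL, mouse 2 had high Cyp2c40 (325 CPM) and Cyp2c69 (220 CPM), genes that share over 54% of exon windows with other genes. Cyp2c50 was high in miR-Ctrl mouse 2 (123 CPM). No member had all mice of 1 BDL group above and all of the other below the mice without BDL.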

How the results depend on the processing

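Depth limits the members with few counts, such as Cyp2s1, Cyp1b1 and Cyp2g1, and 3 mice a group limit the comparison of the BDL groups.

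Under library-size scaling the members' calls became 7 higher and 16 lower with miR-Ctrl, and 3 higher and 8 lower with anti-miR-873-5p, while the median of all genes moved to 0.79 and 0.82. Higher calls with anti-miR-873-5p were 2 with the top 20 genes left out of the library size, with DESeq2, with all genes of at least 1 count, with a mean of at least 10 counts, and with all 3 groups in 1 fit. DESeq2 called 2 members higher between the BDL groups. Leaving out 1 mouse gave 26 to 32 lower and 2 higher calls with miR-Ctrl, 14 to 28 lower and 1 to 2 higher with anti-miR-873-5p, and 0 between the BDL groups. Over all genes, the lower calls in these fits were 1731 to 2711 with miR-Ctrl and 357 to 1817 with anti-miR-873-5p. A replicate block joins mice that share only a number. In the 2 comparisons with no BDL, 0 of 8 and 1 of 8 mice correlated best with the mouse of their own number, and between the BDL groups this was not counted. The block gave 27 lower and 2 higher with miR-Ctrl, 18 lower and 1 higher with anti-miR-873-5p, and 0 between the BDL groups. The cause of these changes was not tested.

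Of the members called in either comparison with no BDL, 2 changed sign in an alternative, Cyp2r1 (0.17) and Cyp2d26 (0.059), both with miR-Ctrl under library-size scaling. Among the 27 members the naming rule gave, other signs that turned were of values that passed no test. With miR-Ctrl, library-size scaling gave 0.40 for Cyp2a12, 0.37 for Cyp2c38, 0.41 for Cyp2c70 and 0.75 for Cyp2j6. Cyp2j6 was 0.31 without the top 20 genes and ranged from -0.17 to 0.019 when 1 mouse was left out (0.012 without no BDL mouse 2, 0.0082 without miR-Ctrl mouse 2). Cyp3a11, Cyp3a16 and Cyp3a44 became -0.080, -0.074 and -0.080 with the replicate block and -0.21, -0.20 and -0.18 without miR-Ctrl mouse 4 (0.44, 0.45 and 0.44 without mouse 3). With anti-miR-873-5p, library-size scaling gave 0.57 for Cyp2a12, 0.054 for Cyp2c23, 0.65 for Cyp2j6, 0.50 for Cyp3a11, 0.50 for Cyp3a16 and 0.47 for Cyp3a44. Leaving out the top 20 genes gave 0.091 for Cyp2a12, 0.18 for Cyp2j6, 0.024 for Cyp3a11 and 0.031 for Cyp3a16. Cyp2c38 became -0.017 with all groups in 1 fit, -0.052 with the block, and -0.081, -0.13, -0.13 and -0.28 without no BDL mouse 2, 4 or 5 or anti-miR-873-5p mouse 3 (0.35 without no BDL mouse 1). Between the BDL groups, Cyp1a2 became 0.20, 0.23 and 0.17 without miR-Ctrl mouse 1 or anti-miR-873-5p mouse 3 or 4. Cyp2c29 became 0.075, 0.0099 and 0.25 without miR-Ctrl mouse 4 or anti-miR-873-5p mouse 3 or 4, and Cyp2f2 0.11 without anti-miR-873-5p mouse 4. Without anti-miR-873-5p mouse 1 the 3 genes had -1.52, -1.49 and -0.81.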
